A study of Mus musculus with 2 samples.

Results

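The EGF receptor family is described here in mouse embryonic fibroblasts (MEFs) that carried or lacked Fut8. The genes are Egfr, Erbb2 and Erbb3 among the receptors, Ereg, Areg, Hbegf, Btc, Tgfa and Nrg1 among the ligands, and the receptor inhibitor gene Errfi1. They were chosen by name, with earlier results of these data known. A probe set is the group of short probes that reports 1 transcript on an Affymetrix array. It was taken where the platform annotation gave it exactly 1 of these 10 symbols. This gave 21 of the 45101 probe sets, for 9 of the 10 genes (18193 genes in all); Areg was not analysed here. RNA came from MEFs in culture medium with 10% fetal calf serum, 1 array for the genotype Fut8+/+ and 1 for Fut8-/-. Nothing but the genotype separates the groups in the labels. The design text speaks of 3 cultures per genotype, while each array is labelled as a single replicate; the sources used here do not say what each RNA was pooled from, how Fut8 was disrupted or how old the embryos were. With 1 array per genotype no difference below has a replicate check or a test, and every value describes this pair of cultures.

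Receptors of this family span the cell membrane, bind ligands with an EGF-like fold, pair with each other and phosphorylate their own tails, which starts the Ras-ERK and PI3K-Akt cascades. The ligands are made as membrane-bound precursors and released by metalloproteinases of the ADAM family. Genes for several ligands and for Errfi1 are themselves known to be switched on by growth factor signalling, Errfi1 then acting as a brake on the receptor. Egfr carries many N-glycans, and Fut8 is the enzyme that adds the core fucose to them. In fibroblasts, Egfr is a receptor through which EGF drives growth.

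Signals are printed as deposited. For ratios, the Fut8-/- array was multiplied by 1.16 so that the median log2 ratio of Fut8-/- over Fut8+/+ was 0 over 23847 probe sets, and scaled signals under 12.4 were raised to that floor, below which values have no order. A gene was counted as measured where its brighter array reached 39.0 once scaled, and as higher or lower where the ratio of its brightest probe set was at least 2-fold. Probe sets of 1 gene differed in log2 ratio with an SD of 0.40 (5389 genes). This is a spread within this pair of arrays, in which technical noise and differences between transcripts were not told apart. It is no error between cultures. Fut8, the targeted gene, was 14.1-fold lower on the Fut8-/- array (190.9 and 11.7), the side its label gives; whether that probe set reads the disrupted part is not known here. Sex-linked transcripts also set the cultures apart: Xist read 656 in Fut8+/+ and 15.2 in Fut8-/-, and the Y-linked Eif2s3y read 7.06 and 2845. The part of that difference in the results below was not tested.

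Epiregulin (Ereg), the HB-EGF gene Hbegf and the inhibitor gene Errfi1 were lower on the Fut8-/- array, by 3.15-fold, 2.70-fold and 2.52-fold. The receptor genes lay within 2-fold, Egfr at 1.74-fold lower being the nearest to that limit. By the 2-fold limit, 3 of the 8 measured members (37.5%) counted as lower and 0 as higher, beside 8.46% lower and 6.12% higher among all 10165 measured genes. Because the members were chosen with earlier results of these data known, these shares only describe them. The log2 ratio was below 0 for all 8 at their brightest probe sets, against 49.9% of measured genes. With no measured limit it was below 0 for 8 of 9 members, Btc being at 0.20. The ratios of Erbb2, Erbb3, Nrg1 and Tgfa were smaller than the spread of 0.40 between probe sets, and the probe sets of Tgfa differed in sign. The median over the 8 was -0.59, beside 0.00 over all measured genes. It was -0.31 with the median over each gene's probe sets, -0.39 over 9 members with no measured limit and -1.07 over the 4 members left with that limit at the 75th percentile. Among the 5359 genes whose brighter signal lay in the range of the measured members, 57.1 to 480.5, 9.83% were lower and 6.36% higher.

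**Figure D1:**
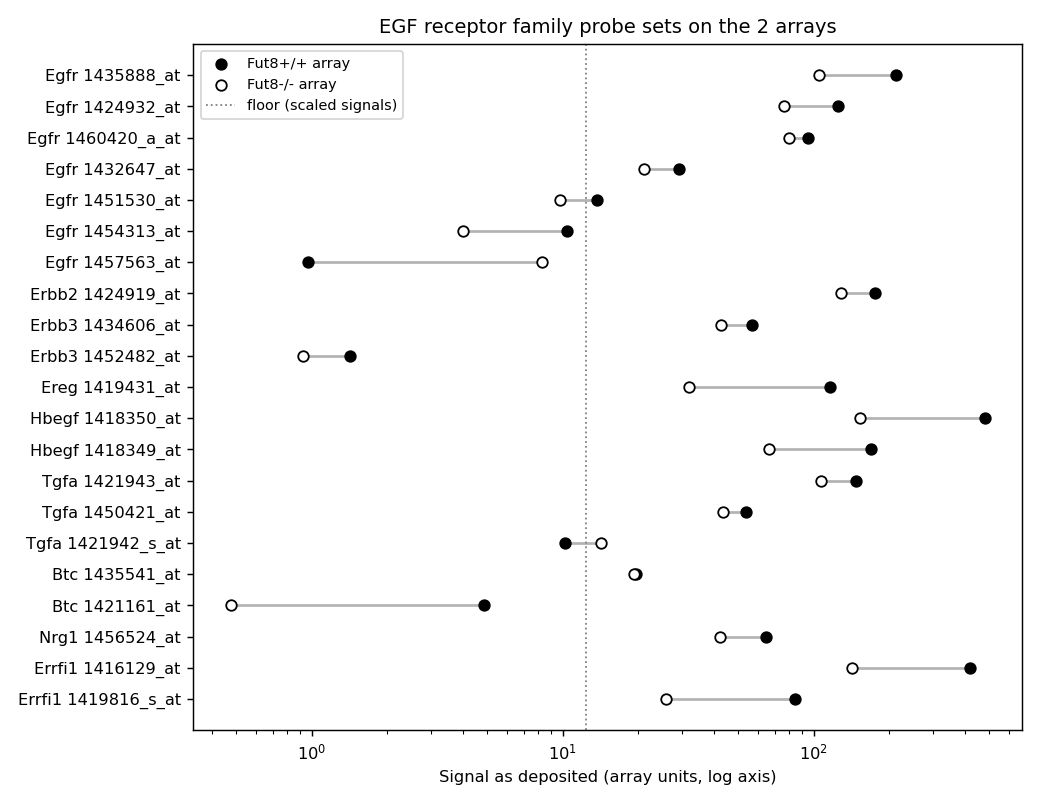
Deposited signal (array units, log axis) of each of the 21 probe sets in Fut8+/+ (filled points) and Fut8-/- (open points), with the floor of 12.4 for scaled signals as a dotted line. The widest gaps to the right of the floor are those of Ereg, Hbegf and Errfi1; 4 probe sets lie under the floor on both arrays.

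The receptor Egfr had 7 probe sets, which did not give a single value. Probe set 1435888_at read 213.7 in Fut8+/+ and 105.5 in Fut8-/-, a log2 ratio of -0.80. Probe set 1424932_at read 124.8 and 75.9 (-0.50). Probe set 1460420_a_at read 94.9 and 79.5, a ratio of -0.04, so that its signals differed by little more than the scaling between the arrays. The dimmer 1432647_at read 29.0 and 21.1 (-0.24). These 4 probe sets, all above the floor on both arrays, were each lower on the Fut8-/- array, with a mean log2 ratio of -0.39 and an SD of 0.33. Probe set 1451530_at was above the floor only in Fut8+/+ (13.7 and 9.73), which bounds its ratio at -0.15 or below. The other two, 1454313_at (10.4 and 4.02) and 1457563_at (0.970 and 8.29), were under the floor on both arrays and give no ratio. The sources used here do not say which exons or isoforms of Egfr each probe set reads. The value of the gene therefore depends on the probe set taken: the median over all 7, with those under the floor on both arrays set to 0, was -0.15.

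Without centring, 1435888_at had a log2 ratio of -1.02 and Egfr passed the 2-fold limit, which made 4 members lower in place of 3. On that scale the median of all measured genes was -0.23, and 11.8% of them were lower and 4.09% higher. With centring, 11.1% of the measured genes had a lower ratio than Egfr (-0.80). The gene lies on chromosome 11, whose 849 measured genes had a median centred log2 ratio of 0.13.

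At their brightest probe sets the other receptors differed less than Egfr. Erbb2, which has no known ligand of its own and serves as the partner of the other receptors, had 1 probe set with 175.8 in Fut8+/+ and 128.2 in Fut8-/-, a log2 ratio of -0.24. Erbb3, a neuregulin receptor with little kinase activity, had 57.1 and 42.9 at its brighter probe set, a ratio of -0.19, while its other probe set was under the floor on both arrays (1.43 and 0.926). Both ratios were smaller than the spread of 0.40 between probe sets of 1 gene.

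**Figure D2:**
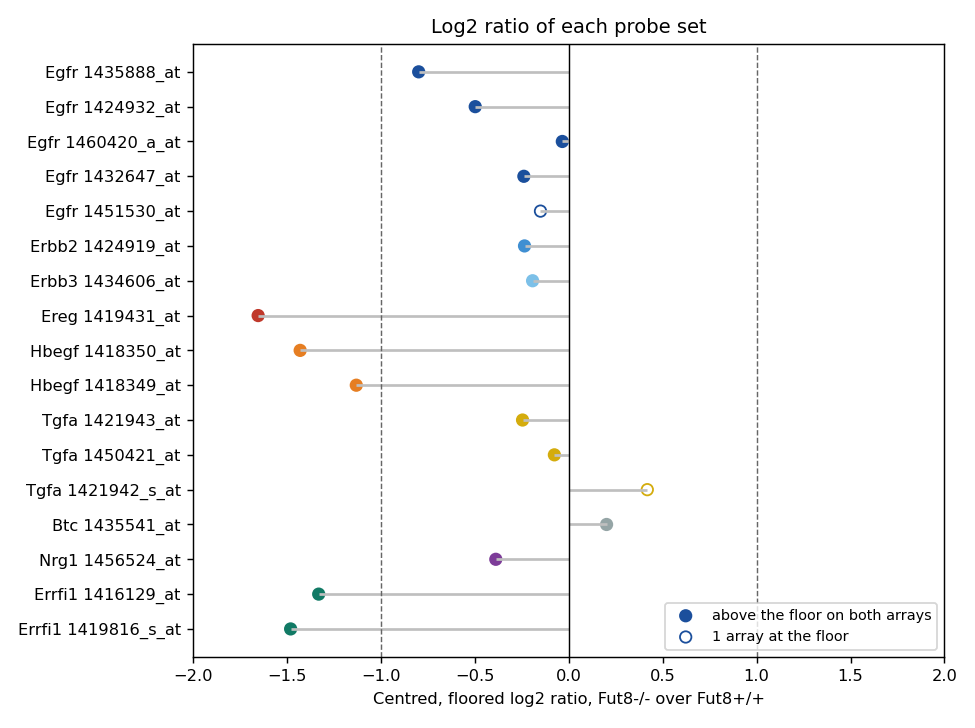
Centred and floored log2 ratio of Fut8-/- over Fut8+/+ for the 17 probe sets above the floor on at least 1 array; filled points lie above the floor on both, open points are bounds, and dashed lines mark 2-fold. The probe sets of Ereg, Hbegf and Errfi1 lie left of -1, and those of Egfr spread from -0.80 to -0.04.

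Of the 4 measured ligands, Ereg and Hbegf passed the 2-fold limit and Tgfa and Nrg1 did not. Ereg, the epiregulin gene, whose product binds Egfr and Erbb4, had 1 probe set, which read 116.6 in Fut8+/+ and 31.8 in Fut8-/-. Its log2 ratio of -1.65 was the lowest of the members, and 4.01% of measured genes had a lower one. Hbegf, whose product binds heparan sulfate as well as Egfr, read 480.5 and 153.1 at 1418350_at and 169.1 and 66.3 at 1418349_at. Both probe sets of Hbegf were lower, by 2.70-fold and 2.19-fold, the second being the member value just past the limit.

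Tgfa, the TGF-alpha gene, read 147.6 in Fut8+/+ and 106.8 in Fut8-/- at its brightest probe set, a log2 ratio of -0.25. A further probe set of Tgfa read 53.7 and 43.7 (-0.08), and the dim 1421942_s_at, at the floor in Fut8+/+, read 10.2 and 14.2, at least 0.42 in the other direction. The sign of Tgfa thus differed between its probe sets. Nrg1, the gene of neuregulin, a ligand of Erbb3 and Erbb4, read 64.5 and 42.3 (-0.39), a difference under the spread between probe sets. Btc, the betacellulin gene, was not measured by the limit above: it read 19.6 and 19.3 at 1435541_at, and 4.85 and 0.478 at 1421161_at, which is under the floor on both arrays.

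Errfi1 encodes MIG6, a cytoplasmic protein that binds the kinase domain of the receptors and blocks it. Probe set 1416129_at read 418.3 in Fut8+/+ and 142.7 in Fut8-/-, a log2 ratio of -1.33. Probe set 1419816_s_at read 84.1 and 25.9, a ratio of -1.48. Both Errfi1 probe sets were thus lower, by 2.52-fold and 2.79-fold. The chromosome medians were small beside the ratios of the lower members: -0.22 for chromosome 4 (Errfi1), -0.06 for chromosome 5 (Ereg) and -0.19 for chromosome 18 (Hbegf). With each chromosome centred the 3 stayed at least 2-fold lower.

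**Figure D3:**
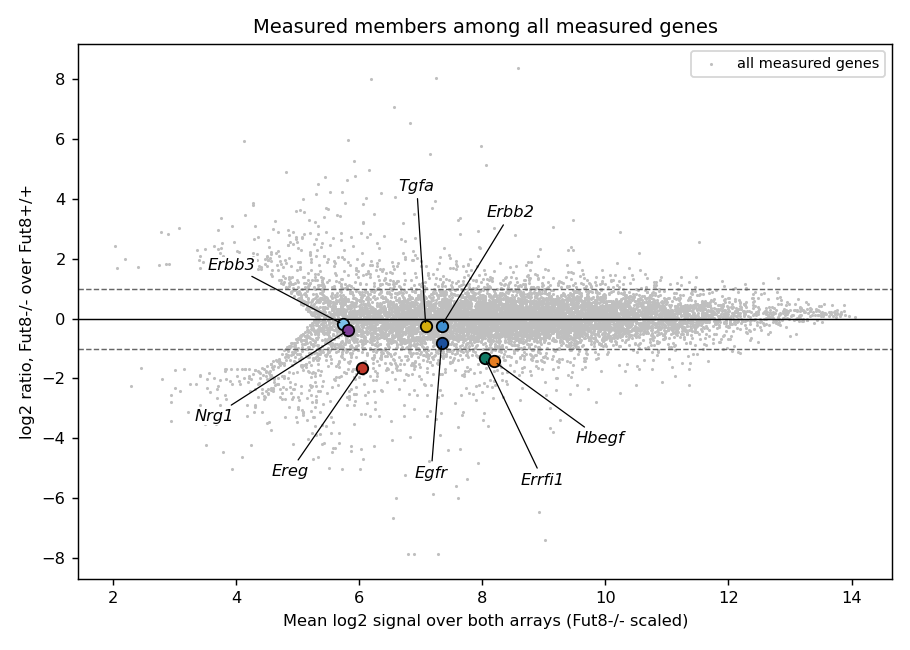
Log2 ratio of Fut8-/- over Fut8+/+ against the mean log2 signal of both arrays for all 10165 measured genes (grey) and the 8 measured members (coloured, 1 point a gene at its brightest probe set); dashed lines mark 2-fold. Ereg, Errfi1 and Hbegf lie under the lower line, with Egfr just above it.

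The stretch of DNA around the start of Errfi1, a lower member, is printed beside that of Egfr, whose ratio lay within 2-fold. The array reads RNA levels, and the part of these start regions in them was not tested. RefSeq promoter sequences (assembly GRCm38.p6, 250 bases before to 50 after the start) were read for 6 of the 10 genes. The other genes had no entry in the set searched, which did not cover the whole genome. For Errfi1 there were 2 starts, and the one with motif matches is shown. Capitals mark matches, on either strand, to the 6 motifs searched, which were chosen after the values were known.
Errfi1, chr4:150854820-150855119, plus strand: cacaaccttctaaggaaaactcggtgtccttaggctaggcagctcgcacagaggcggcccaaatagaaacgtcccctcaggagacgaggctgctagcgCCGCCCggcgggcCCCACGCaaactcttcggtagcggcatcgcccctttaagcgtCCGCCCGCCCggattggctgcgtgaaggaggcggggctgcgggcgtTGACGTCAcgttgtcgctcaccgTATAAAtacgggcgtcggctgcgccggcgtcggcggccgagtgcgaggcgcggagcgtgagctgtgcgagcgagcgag
Egfr, chr11:16751953-16752252, plus strand: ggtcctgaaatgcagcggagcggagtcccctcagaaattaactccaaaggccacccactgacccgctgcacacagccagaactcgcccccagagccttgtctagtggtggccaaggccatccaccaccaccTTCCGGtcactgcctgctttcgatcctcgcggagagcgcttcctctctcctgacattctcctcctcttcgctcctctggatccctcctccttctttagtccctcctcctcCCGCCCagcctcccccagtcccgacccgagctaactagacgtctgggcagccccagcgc
The Errfi1 stretch holds 1 match to the cyclic AMP response element TGACGTCA, which 1.79% of the 32851 promoters searched, of the same length, hold. It also holds 1 match to the TATA box letters TATAAA, which 13.6% of promoters hold. A further match in it is to the letters GCGTGGG of the EGR factors, found in 5.04% of promoters. The Sp factor letters GGGCGG, which 35.7% of promoters hold, match 3 times in Errfi1, with overlap, and 1 time in Egfr. The Egfr stretch has 1 match to the ETS factor letters CCGGAA, a motif of 14.9% of promoters. The AP-1 letters TGANTCA, in 7.81% of promoters, are in neither window. Among the windows not printed, that of Areg also holds 1 match each to TGACGTCA and TATAAA, and 2 to GGGCGG. The Tgfa window holds 2 matches to GGGCGG, and the Btc and Erbb2 windows hold no match to the 6 motifs. Adjacent Errfi1 matches run together in the capitals. A match describes the letters only and shows no binding.

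The wider pathway was described with 7 lists holding 87 genes besides the members, of which 80 had a probe set used here and 68 were measured. Of these, 7 (10.3%) counted as lower and 0 as higher, a share of lower genes near the 8.46% of all measured genes. With quantile normalization, and with each chromosome centred, the split was 7 lower and 1 higher (Fos). The median log2 ratio of the 68 was -0.01.

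Among further ligands and receptors of the family, only Nrg2 was measured, with 37.8 and 34.4 as deposited and a log2 ratio of 0.08; it reached the limit only through its scaled Fut8-/- signal. Erbb4 and Nrg3 were under the floor on both arrays, and Egf, Epgn and Nrg4 were under the measured limit. Of 9 measured sheddases and cofactors, 2 (22.2%) were lower and 0 higher, beside 8.46% and 6.12% of all measured genes (list median -0.39). Adam19 was at least 9.01-fold lower (111.3 and 8.97, under the floor in Fut8-/-) and Adam12 5.87-fold lower (89.8 and 13.1). Both are membrane proteases reported to cleave EGF family ligands. Their dimmer probe sets, 1418403_at of Adam19 (29.2 and 7.07) and 1421171_at of Adam12 (19.1 and 0.702), were under the floor in Fut8-/-. Those probe sets give bounds only, at least 2.37-fold and 1.54-fold lower. Adam17, the principal sheddase of several ligands of Egfr, read 455.7 and 263.3 (-0.57), and Adam10 read 1676 and 1644 (0.19). Adam9 read 2470 and 1234, a log2 ratio of -0.78 that passed the limit without centring.

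Of 16 measured inhibitors, ubiquitin ligases and trafficking genes, 1 (6.25%) was lower, beside 8.46% of all measured genes (list median -0.08). This was Lrig1, a transmembrane protein that restrains the receptors and promotes their degradation, with 613 and 79.2, or 6.65-fold lower. Its probe set 1449893_a_at read 583.8 and 56.1 (-3.16) and its dim 1419928_at 24.6 and 15.3 (-0.47), so all 3 had the same sign. Cbl, the ubiquitin ligase of activated Egfr, had a log2 ratio of -0.51, and Eps15, an endocytic adaptor, -0.66. The receptor inhibitors Errfi1 and Lrig1 were thus both lower, whereas Lrig3 had a ratio of 0.64. The ratio of Socs5 was 0.76 at its brightest probe set, and its probe sets differed in sign.

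**Figure D4:**
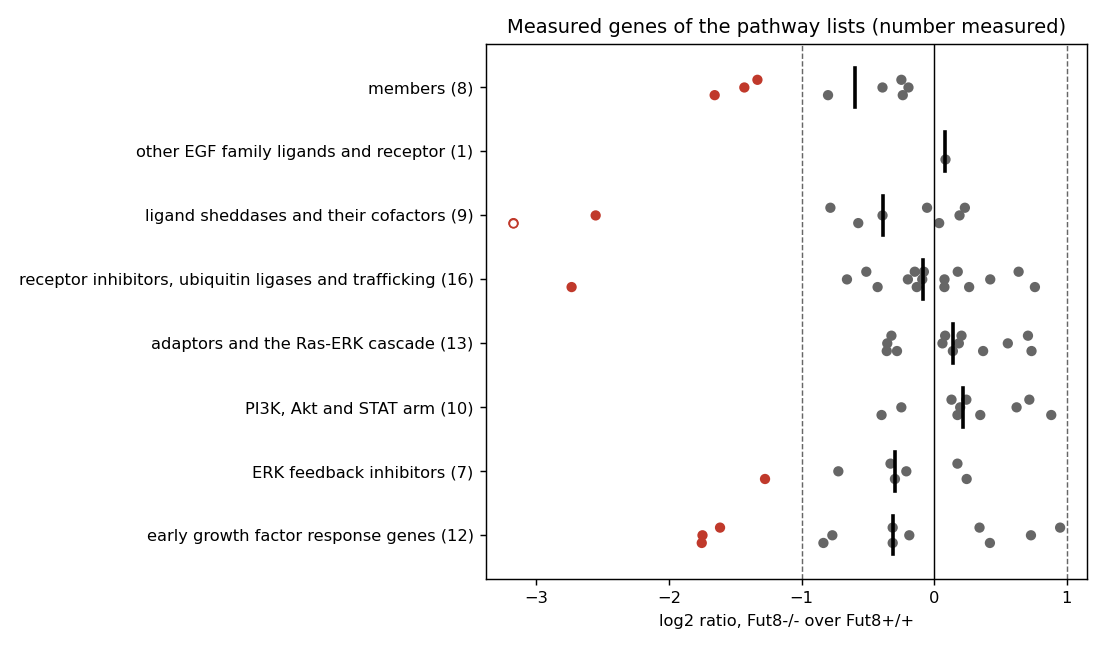
Log2 ratio of Fut8-/- over Fut8+/+ for each measured gene of the members and of the 7 pathway lists, with the number measured in brackets; thick bars are medians, red points are at least 2-fold lower, the open red point (Adam19) is a bound and dashed lines mark 2-fold. The adaptor and PI3K lists lie wholly within 2-fold.

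The cascade between receptor and nucleus lay within 2-fold. None of 13 measured adaptor and Ras-ERK genes was past the limit (median 0.14, range -0.36 to 0.73); the phosphatase gene Ptpn11 read 2468 and 1655 (-0.36) and the kinase gene Map2k1 972 and 668 (-0.32). None of 10 measured PI3K, Akt and STAT genes was past it either (median 0.22), with Akt1 at -0.25 and the PI3K subunit gene Pik3r1 at 0.88, although the probe sets of Pik3r1 and of Akt1 differed in sign.

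Genes that growth factors induce were uneven. Of 12 measured early response genes, 3 (25%) were lower and 0 higher, beside 8.46% and 6.12% of all measured genes (list median -0.31). Egr1, a zinc finger factor induced through ERK, read 2345 and 600.2 (3.36-fold lower). Jun, an AP-1 subunit, read 533 and 136 at its brighter probe set (3.37-fold lower) and 350.1 and 80.7 at the other. Atf3, which stress as well as growth factors induce, read 222 and 62.3 (3.06-fold lower). Fos, the partner of Jun in AP-1, had the opposite sign, with 136 and 226 and a log2 ratio of 0.95. Ier2 (-0.83) and Fosl1 (-0.77) were within 2-fold, as were Myc (0.34) and Srf (0.73). Of 7 measured feedback inhibitors of ERK, 1 (14.3%) was lower, beside 8.46% of all measured genes (list median -0.30): the ERK phosphatase gene Dusp5, with 156.2 and 55.5 (2.42-fold lower). Dusp6, another ERK phosphatase gene, read 70.5 and 68.4 (0.18), and Dusp1 212 and 216 (0.25).

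Likeness to Egfr was measured as the distance between pairs of log2 signals over the 2 arrays, which cannot set many genes apart: 403 measured genes lay within 0.5 of the brightest Egfr probe set. The search for the nearest was limited to measured genes whose probe sets above the floor shared a sign. It gave Ampd3 (216.7 and 106, distance 0.021), Stk10 (210.3 and 107.6, distance 0.037) and Sdhaf3 (208.8 and 104, distance 0.039).

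Cell type markers were read beside these values. Of 12 fibroblast markers, 8 were measured; Col1a2 (11280 and 9433) and Vim (11471 and 11110) were present on both arrays, Thy1, Lum and Fap were under the measured limit and Dcn was under the floor on both. Col1a1 (2.58-fold), Pdgfra (2.26-fold) and Fn1 (3.24-fold) were lower and Pdgfrb 2.13-fold higher, with summed signals over the list of 40281 and 34513. Of 10 epithelial markers, 3 were measured: Krt19 (2.08 and 155.3) and Dsp (5.07 and 71.1) were higher in Fut8-/- and Epcam (44.9 and 15.9) lower, with summed signals of 121 and 311; Cdh1, Krt18, Cldn4 and Esrp1 were under the floor on both arrays. No marker of Schwann and neural crest cells (5 on the array used here, summed 46.6 and 44.6) or of endothelium (6, summed 70.4 and 45.7) was measured, and of 6 macrophage markers only Csf1r was (-0.24; summed 111.7 and 74.8). Sox10, Foxd3, Pecam1, Tie1, Emcn, Ptprc, Adgre1 and Itgam were under the floor on both arrays. The part of these differences in the lower signals of Ereg, Hbegf and Errfi1 was not tested. Fewer cells of a type and less RNA per cell cannot be told apart in such bulk RNA.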

How the data were processed

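Total RNA of the Fut8+/+ and the Fut8-/- MEFs was labelled with biotin and hybridised to 1 Affymetrix array each. The deposited values are linear signal intensity values, 1 per probe set, which the authors made with GCOS, per the submitters' processing notes; the sources used here name no version, algorithm, scaling or detection calls, and the column medians were 20.5 and 16.9. Of the probe sets, 34945 had 1 gene symbol in the platform annotation, 932 several and 9160 none, and 64 were controls; 34741 matched the GRCm38.p6 gene table, with 0 symbols changed.

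Log2 ratios were shifted by their median (-0.22) over the probe sets that exceeded the 40th percentile of each array. The floor was the pooled 40th percentile and the measured limit the 60th. The floor understates ratios of dim genes. The probe set with the highest mean log2 signal stood for a gene. Groups came from the genotype labels. No test was possible, and the number of arrays limits the precision. Named pathway genes were those at least 2-fold different, and up to 3 others per list with the highest signal. Further ones were chosen after their values were seen, as were the promoter motifs. The promoter search left out the chromosome of Hbegf. Hbegf was therefore not looked up, and the motif shares cover no promoters of that chromosome. The members and lists were chosen with earlier results of these data known. The 10 other settings changed the centring (5), the floor (2), the measured limit (2) or the probe set taken (1). The steps were run on simulated data with planted changes larger than 2-fold and noise under the probe set spread. Calls near the 2-fold limit were not tested there. Python 3.11.15, numpy 2.4.6, pandas 2.3.3 and statsmodels 0.14.6 were used.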

Additional observations from a re-analysis of the deposited data

How the results depend on the processing

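Under each of the 10 other settings, 0 members were at least 2-fold higher and 2 to 4 were at least 2-fold lower. The count was 4 without centring, where Egfr joined (-1.02), and 2 with the measured limit at the 75th percentile, where 4 members including Egfr were measured and Ereg was not. The number of pathway genes counted as higher was 1 in place of 0 with quantile normalization and 1 with each chromosome centred; the gene was Fos in both, at log2 ratios of 1.00 and 1.29. Pathway genes counted as lower numbered 5 to 9, with 9 without centring. The log2 ratio of Egfr as the median over its probe sets was -0.15, a move larger than the SD of 0.40 between probe sets of 1 gene. The floor at the 20th percentile and both other measured limits leave member ratios as they are by construction. Log2 ratios ranged from -1.87 to -1.58 for Ereg, -1.65 to -1.27 for Hbegf and -1.55 to -1.14 for Errfi1. No paired analysis was possible because each genotype has 1 array, and for the same reason no array could be left out.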
